A study of Mus musculus with 4 samples.

Results

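The genes described here are the 8 genes of the adrenomedullin and CGRP (calcitonin gene-related peptide) receptor system: the ligand genes Adm, Calca and Calcb, the receptor genes Calcrl and Calcr, and the accessory protein genes Ramp1, Ramp2 and Ramp3. They were chosen by gene symbol, and all 8 were found among the 46072 genes of the table. The series holds 1 group of 4 poly(A) RNA-seq libraries, here replicates 1 to 4, from brain vasculature of wild-type, untreated mice, labelled as endothelial cells cut out by laser capture microdissection. The series title adds that the brain was fixed by perfusion and that the cells were picked after immunolabelling. The sources used here give neither the age of the mice nor whether each library is from its own animal, so the p-values reflect only the spread among these 4 samples, which could be technical.

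Adrenomedullin and CGRP are small peptides that widen blood vessels. Both signal through the protein of Calcrl, a G protein-coupled receptor that reaches the cell surface and gains its ligand preference only in complex with a RAMP (receptor activity-modifying protein). With RAMP1 it forms the CGRP receptor, and with RAMP2 or RAMP3 it forms the adrenomedullin receptors. The calcitonin receptor Calcr also pairs with RAMPs, which turns it into an amylin receptor. In endothelium the Adm, Calcrl and Ramp2 genes are known for their role in vessel development and in keeping vessels tight, whereas CGRP is best known as a peptide of sensory nerves, released around vessels in migraine.

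Values are FPKM (fragments per kilobase per 1000000 mapped) as the authors deposited them, with sums per library of 448678 to 482882. FPKM is scaled by length, so levels of different genes are set side by side here. That assumes reads spread evenly along each transcript, which cannot be checked from these values. The files hold no counts, the depth is therefore unknown and no counting error is given, and a gene without signal is described as listed at 0. The labelled cell type was checked against marker genes. Of 16 general endothelial markers, 13 were above 1 FPKM, 1 was below and 2 passed neither way (limma, adjusted over all genes). Of all genes with a value over 0 somewhere, 47.7% were above and 40.1% below. The endothelial levels summed to 232 to 271 FPKM per library. Markers of other cells were also present, several at higher sums. All 8 markers each of choroid plexus, oligodendrocytes, neurons, astrocytes and smooth muscle were above 1 FPKM by the same fit. So were 7 of 8 for fibroblasts and 5 of 8 for pericytes, so the endothelial count does not by itself single out the labelled cell type. The 8 markers of each type summed to 12257 to 17949 FPKM per library for choroid plexus (of which Ttr, transthyretin, gave most), 4929 to 6191 for oligodendrocytes and 2250 to 2877 for neurons. Those sums were 921 to 1104 for astrocytes, 276 to 329 for fibroblasts, 157 to 194 for smooth muscle and 91.3 to 104 for pericytes, and 4 lymphatic endothelial markers summed to 5.26 to 10.1. In such bulk samples, fewer cells of a type and less RNA per cell cannot be told apart, and the cells that each transcript below came from were not tested.

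At a pair of places the annotation bears on how the members' values can be read, and the sequences there are shown first. Ramp2 (ENSMUSG00000001240, chr11:101246028-101259546, plus strand, GRCm38) and Vps25 (ENSMUSG00000078656, chr11:101253707-101259549, plus strand), which encodes a subunit of the endosomal sorting complex ESCRT-II, overlap on the same strand. Of 8 annotated Ramp2 transcripts, 7 end before Vps25 begins, 5456 bases short of it for Ramp2-204, the transcript with the longest coding sequence. The other one, the readthrough transcript, is annotated as subject to nonsense-mediated decay. It joins Ramp2 exon 2 to an exon that begins just upstream of Vps25 and contains the first exon of the Vps25 transcript of 1106 bases. It then runs on through the Vps25 exons, so that 1103 of its 1478 exon bases (74.6%) are also Vps25 exon bases. Of the exon bases of that Vps25 transcript, 99.7% lie inside the readthrough transcript. The junctions below are 30 bases long, 15 from each exon, with the 3′ exon in capitals. The first is the Ramp2 junction of 4 Ramp2 transcripts, spliced from chr11:101247130-101247144 to chr11:101247586-101247600. The second occurs in the readthrough transcript alone and goes from the same exon to chr11:101253604-101253618. The third, from chr11:101253793-101253807 to chr11:101254031-101254045, is found in 5 Vps25 transcripts and in the readthrough transcript, 6 in all, so a read across it cannot be given to either gene by sequence.
Ramp2 exon 2 to exon 3: gccttgtgtcaaaagGGAAGATGGAAGACT
Ramp2 exon 2 to readthrough exon: gccttgtgtcaaaagACAGCAGCAGATTGG
Vps25 exon 1 to exon 2, shared with the Ramp2 readthrough transcript: cccgcccttctttacGTTACAGCCGAACGT

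**Figure D1:**
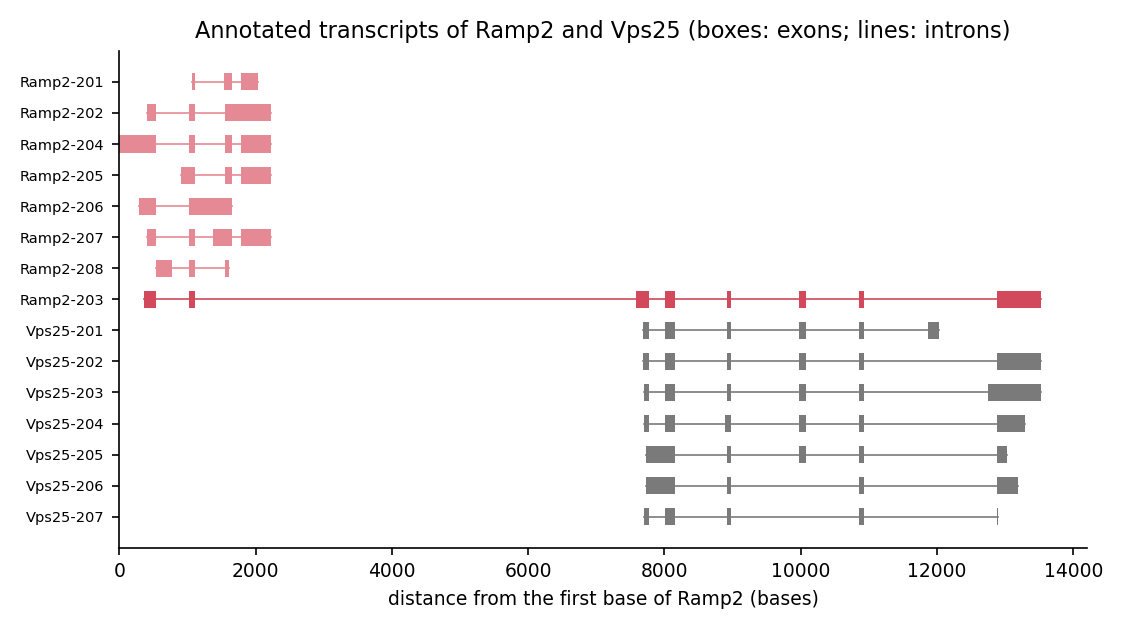
The map shows the annotated transcripts of Ramp2 (red) and Vps25 (grey) by distance in bases from the first base of Ramp2, with exons as boxes and introns as lines. The transcript drawn in the darker red is the only Ramp2 one whose exons coincide with those of Vps25.

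The second place is the CGRP gene pair. Calca (ENSMUSG00000030669, chr7:114631478-114636357, minus strand) makes either calcitonin or alpha-CGRP by alternative splicing, and Calcb (ENSMUSG00000030666, chr7:114718643-114723365, plus strand) makes beta-CGRP. The deposited value is per gene, so the calcitonin and CGRP forms of Calca cannot be told apart here. The 2 forms part after exon 3, at chr7:114634468-114634482, as the junctions below show (3′ exon in capitals). Calca-201 continues at chr7:114632585-114632599 and Calca-202 at chr7:114633771-114633785.
Calca-201: ggctgagggctctagTGTCACTGCTCAGAA
Calca-202: ggctgagggctctagCTTGGACAGCCCCAG

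Calca-201 is the form that resembles Calcb, with 85.3% identical bases over 381 aligned coding bases against 71.8% for Calca-202. The longest stretch that Calca-201 and Calcb-201 share without a mismatch is 60 coding bases, against 13 for Calca-202. It runs from the last base of exon 3 into exon 4 of both transcripts, with 59 bases in exon 4 (introns included, chr7:114632541-114634468 for Calca and chr7:114720214-114722033 for Calcb). Reads that lie wholly within it match both genes, and the sources used here do not say how such reads were treated.
Shared by Calca-201 and Calcb-201: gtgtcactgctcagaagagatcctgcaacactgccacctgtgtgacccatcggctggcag

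No identical run over 13 coding bases was found between any pair of the longest-coding Ramp1, Ramp2 and Ramp3 transcripts, and 20 coding bases was the longest between the Calcrl and Calcr transcripts compared.

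The 3 RAMP genes were the highest of the receptor components, and Calcrl, the receptor they serve, was lower than each of them in every library. Against 1 FPKM, 6 of the 8 members lay above and 2, Calcb and Calcr, lay below (limma, adjusted over all genes). Among the 25206 genes with a value over 0 somewhere, 47.7% were above 1 FPKM and 40.1% below. The median over the 8 members was 3.36 ± 0.717 FPKM (SD, n = 4), beside 1.43 ± 0.107 for all of those genes. With each library rescaled to a sum of 1000000, which moves FPKM values up by about 1.10 on the log2 scale, 13693 genes lay above and 7474 below in place of 12034 and 10104, and Calcb lost its call (adjusted p = 0.0779).

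**Figure D2:**
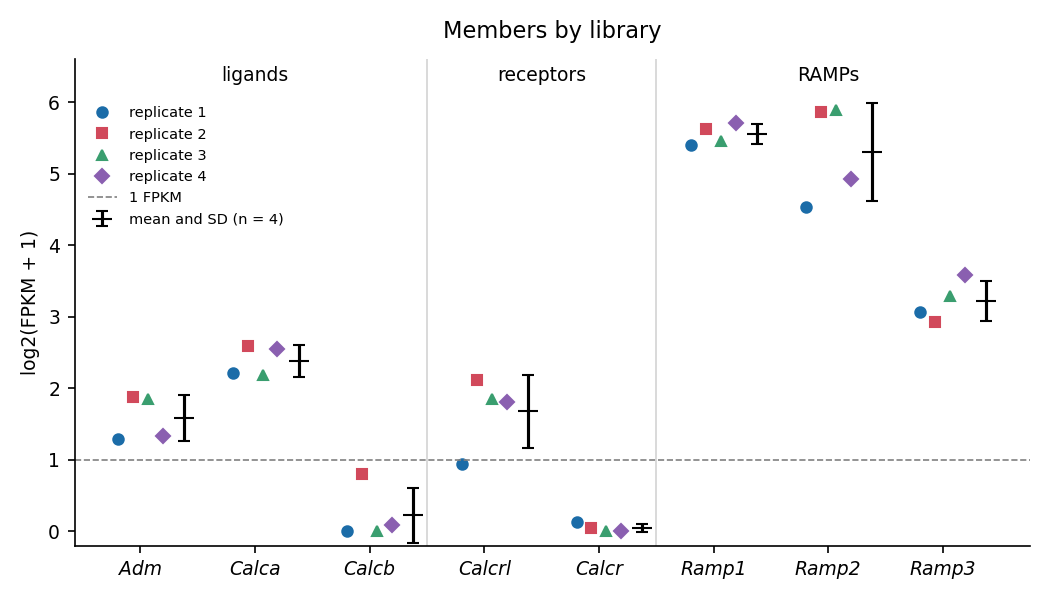
Points give log2(FPKM + 1) of each member in the 4 libraries, bars the mean and SD (n = 4), and the dashed line 1 FPKM. Ramp1 and Ramp2 sit highest, Ramp2 splits into 2 high and 2 low libraries, and Calcr sits at or near 0.

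Among the ligands, Calca was the highest. It measured 3.62, 5.02, 3.53 and 4.83 FPKM in replicates 1 to 4, a mean of 4.25 ± 0.788 (SD, n = 4), and its excess over 1 FPKM was 1.38 ± 0.12 (SE) on the log2(FPKM + 1) scale (limma, adjusted p = 0.000136). Replicates 2 and 4 were the higher ones, and each of its values exceeded each value of Adm and Calcb.

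Adm, which encodes the precursor of adrenomedullin and of the peptide PAMP (ENSMUSG00000030790, chr7:110627661-110629820), measured 1.43, 2.66, 2.60 and 1.53 FPKM, a mean of 2.06 ± 0.665 (SD, n = 4). The pair of replicates 2 and 3 was higher than the pair of 1 and 4. Its difference from 1 FPKM was 0.59 ± 0.16 (SE) on the log2(FPKM + 1) scale, with all 4 libraries above (limma, adjusted p = 0.0182). That call was lost without replicate 2 (adjusted p = 0.0622) and without replicate 3 (adjusted p = 0.0632). The antisense gene Gm28863, which covers the Adm locus on the other strand, was listed at 0 in all 4 libraries.

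Calcb was listed at 0 in replicates 1 and 3 and measured 0.742 FPKM in replicate 2 and 0.0667 in replicate 4. Replicate 2 therefore carries nearly the whole of its level. It lay below 1 FPKM in 4 of 4 libraries, by -0.78 ± 0.15 (SE) on the log2(FPKM + 1) scale (limma, adjusted p = 0.00492), and its value is uncertain for the sequence it shares with Calca. Adm2, the gene of the related peptide intermedin, and Iapp, the gene of amylin, were both listed at 0 in all 4 libraries.

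Calca is a gene of sensory and motor neurons as well as of thyroid C cells, so 6 markers of such neurons were read beside it. Tac1, the substance P precursor gene that many brain neurons also use, measured 59.0 ± 6.10 FPKM (SD, n = 4) and Prph, the filament protein peripherin, 1.05 ± 0.466. The sodium channel gene Scn10a, a defining marker of pain-sensing neurons, was listed at 0 in all 4 libraries. Of the 5 other markers 1 was above 1 FPKM, 3 were below and 1 passed neither way, and the list summed to 54.5 to 66.6 FPKM per library, nearly all of it Tac1. Their part in the Calca level was not tested.

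Of the receptors, Calcrl was measured at a low level and Calcr at almost none. Calcrl (ENSMUSG00000059588, chr2:84330626-84425411) gave 0.917, 3.33, 2.61 and 2.51 FPKM, a mean of 2.34 ± 1.02 (SD, n = 4). Replicate 1 stood below the other libraries, under 1 FPKM. In that library the endothelial markers summed to 232 FPKM, close to the 233 of replicate 3, where Calcrl was 2.61. The cause of the low Calcrl value in replicate 1 was not tested. Calcrl lay above 1 FPKM by 0.68 ± 0.22 (SE) on the log2(FPKM + 1) scale (limma, adjusted p = 0.0335), in 3 of 4 libraries. This call does not hold without replicate 2 (adjusted p = 0.107), without replicate 3 (0.0975), without replicate 4 (0.101) or with the gene's own spread in place of the one moderated across genes (adjusted p = 0.0878), and without replicate 1 the adjusted p was 0.00417.

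Calcr (ENSMUSG00000023964, chr6:3685680-3764714) gave 0.0941 and 0.0378 FPKM in replicates 1 and 2 and was listed at 0 in replicates 3 and 4. It lay below 1 FPKM in every library, by -0.95 ± 0.03 (SE) on the log2(FPKM + 1) scale (limma, adjusted p = 2.16e-06). No value of Calcr reached a value of Calcrl, and the mean difference of Calcrl minus Calcr was 1.63 ± 0.56 (SD, n = 4) on that scale.

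Ramp1, whose protein makes Calcrl a CGRP receptor, had the highest mean of the members and varied least in proportion to its level, though Ramp2 was higher in replicates 2 and 3. Ramp1 (ENSMUSG00000034353, chr1:91179822-91225196) measured 41.4, 48.3, 42.9 and 51.3 FPKM, a mean of 46.0 ± 4.63 (SD, n = 4), and ranked 1712 of the 25206 genes. The 4 libraries lay close together, with a coefficient of variation of 10.1%. Its difference from 1 FPKM was 4.55 ± 0.07 (SE) on the log2(FPKM + 1) scale (limma, adjusted p = 1.86e-07).

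Ramp2, whose protein makes Calcrl an adrenomedullin receptor and which is usually counted as an endothelial gene, measured 22.2, 57.3, 58.2 and 29.4 FPKM, a mean of 41.8 ± 18.7 (SD, n = 4). Vps25 measured 48.3, 14.0, 8.42 and 64.9 FPKM in the same libraries, a mean of 33.9 ± 27.1. Ramp2 was high in replicates 2 and 3, where Vps25 was low, and low in replicates 1 and 4, where Vps25 was high, so the order of the 2 genes turns over between libraries. Their sum was steadier, at 70.5, 71.3, 66.6 and 94.2 FPKM, a mean of 75.7 ± 12.5. The coefficient of variation was 44.7% for Ramp2, 80.1% for Vps25 and 16.6% for the sum. On the log2(FPKM + 1) scale the SD of Ramp2 was 0.68 and exceeded that of 99.8% of the 2529 genes with a mean of 20 to 80 FPKM, whose median SD was 0.16, while the SD of the sum was 0.22 and exceeded 79.7% of them. For Vps25 the SD was 1.34, above 99.9% of those genes. Whether the swing of Ramp2 lies in its RNA or in how reads of the shared exons were divided was not tested. As deposited, Ramp2 lay above 1 FPKM in 4 of 4 libraries (limma, adjusted p = 3.46e-05).

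**Figure D3:**
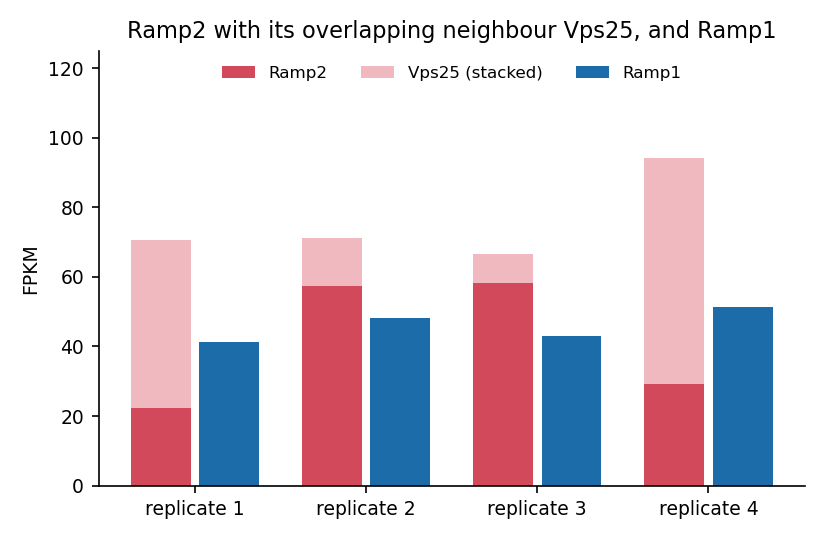
Bars give FPKM by library, with Vps25 stacked on Ramp2 and Ramp1 beside them. Ramp2 is 58.2 FPKM where Vps25 is 8.42 (replicate 3) and 29.4 where Vps25 is 64.9 (replicate 4), while Ramp1 stays between 41.4 and 51.3.

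Ramp3, which forms the second adrenomedullin receptor, was the lowest RAMP gene. It (ENSMUSG00000041046, chr11:6658521-6677475) measured 7.38, 6.63, 8.75 and 10.95 FPKM, a mean of 8.43 ± 1.90 (SD, n = 4). Replicate 4 was the highest and replicate 2 the lowest, and no value overlapped those of Ramp1 or Ramp2. Its difference from 1 FPKM on the log2(FPKM + 1) scale was 2.22 ± 0.12 (SE) (limma, adjusted p = 2.23e-05). The antisense gene Gm11978, which overlaps the 5′ end of Ramp3, measured 0.364 ± 0.283 FPKM. Because the strand setting is not given, reads of Gm11978 may be counted with Ramp3.

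As shares of the summed FPKM of the 3 RAMP genes, Ramp1 held 58.3%, 43.0%, 39.1% and 56.0% in replicates 1 to 4, a mean of 49.1% ± 9.49 (SD, n = 4). Ramp2 held 31.3%, 51.1%, 53.0% and 32.0%, a mean of 41.8% ± 11.8, and Ramp3 9.05% ± 2.66. Which of Ramp1 and Ramp2 led thus depended on the library, with Ramp1 ahead in replicates 1 and 4. With Vps25 added to Ramp2, the Ramp2 share became 58.03% ± 1.93 and the Ramp1 share was 35.5% ± 2.32, so the lead passes to Ramp2 in all 4 libraries, while Ramp3 stayed the smallest at 6.46% ± 0.945. That sum is the most that Ramp2 could reach if all of the Vps25 value were moved to it. If reads of Vps25 were counted with Ramp2 in the deposited values, Ramp2 and its share would instead be lower. No such lower bound was computed, for its share or for its calls.

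Setting the members against each other within a library gave 28 pairs. In 25 of them the 4 values of 1 gene did not overlap those of the other. Pairs of other genes were not counted in this way, so the 25 cannot be read as particular to the members. An exact 2-sided sign-flip test over 4 libraries cannot go below p = 0.125 (0.14 adjusted over the 28 pairs), which these 25 pairs reached, so no pair could pass 0.05. From the top the order of mean levels was Ramp1, Ramp2, Ramp3, Calca, Calcrl, Adm, Calcb and Calcr. Neighbours that overlapped were Ramp1 and Ramp2 (log2 difference 0.25 ± 0.68, SD, exact p = 0.5), Calcrl and Adm (0.09 ± 0.35, exact p = 0.625) and Calcb and Calcr (0.18 ± 0.39, exact p = 0.75). Ramp2 exceeded Ramp3 by 2.09 ± 0.80, Ramp3 exceeded Calca by 0.84 ± 0.35, Calca exceeded Calcrl by 0.70 ± 0.41 and Adm exceeded Calcb by 1.36 ± 0.34 on the log2(FPKM + 1) scale, each in 4 of 4 libraries.

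A fit over all genes with Calcrl of the same library as the reference placed the 3 RAMP genes above it and Calcb and Calcr below it, while Calca and Adm passed in neither direction. Of 25205 genes, 35.2% lay above Calcrl and 45.4% below (limma). Because each gene's difference carries the spread of Calcrl itself, the moderated p-values of this fit are too small, and p-values from each gene's own spread are given instead. Those called the same 5 members, with 30.6% of all genes above and 38.2% below. Ramp1 was 3.87 ± 0.22 (SE) above Calcrl (adjusted p = 0.00648), Ramp2 3.63 ± 0.19 (adjusted p = 0.00639) and Ramp3 1.54 ± 0.28 (adjusted p = 0.0233) on the log2(FPKM + 1) scale. In FPKM, Ramp1 was 45.1, 14.5, 16.5 and 20.5 times Calcrl in replicates 1 to 4. Ramp2 was 24.2, 17.2, 22.3 and 11.7 times Calcrl, and Ramp3 8.05, 1.99, 3.36 and 4.37 times. Replicate 1, where Calcrl was lowest, gave the highest ratio for each RAMP.

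Calca lay 0.70 above Calcrl with an adjusted p of 0.0537 in the moderated limma fit and 0.0594 with its own spread, and so was not called. The moderated fit called it in 3 alternatives, without replicate 1 (adjusted p = 0.0145), without the mean-variance trend (0.0195) and with no filter on low values (0.0429), and the adjusted p was 0.0529 to 0.221 in the others. Adm differed from Calcrl by -0.09 ± 0.17 (SE, own spread, adjusted p = 0.661).

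**Figure D4:**
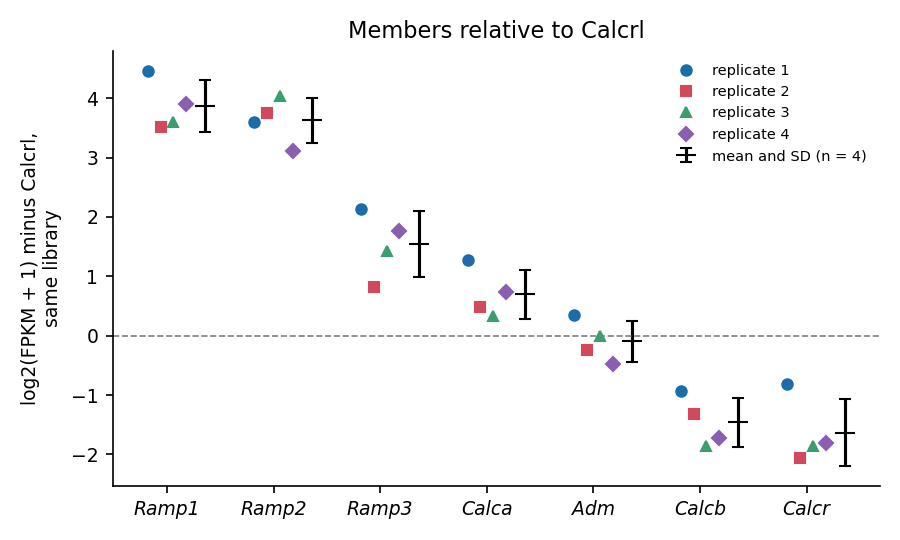
Points give each member's log2(FPKM + 1) minus that of Calcrl in the same library, with the mean and SD (n = 4). The 3 RAMP genes lie above 0 in each library, Adm lies around it, and Calcb and Calcr lie below.

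With Ramp2 as the reference, the 6 members other than Ramp1 lay below it and none above, both in the moderated fit (limma, 86.9% of 25205 genes below and 4.65% above) and with each gene's own spread (83.8% below and 3.62% above). Ramp1 did not pass, at 0.25 ± 0.34 (SE, own spread, adjusted p = 0.534), with 2 libraries above and 2 below. When Vps25 was added to Ramp2, Ramp1 lay at -0.70 and was lower in 4 of 4 libraries.

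Against the median of the 16 endothelial markers, which hold no member, the RAMP genes stood above and the receptors below. The marker median was 5.02 ± 0.298 FPKM (SD, n = 4). Of the 16 markers themselves, 7 lay above it, 7 below and 2 in neither direction (limma). A place below the median therefore does not set a gene apart from the endothelial markers. All 3 RAMP genes lay above it, Adm, Calcb, Calcrl and Calcr lay below, and Calca passed in neither direction (limma, with 29.5% of all genes above and 62.7% below). Calcrl lay at -0.89 ± 0.19 (SE, adjusted p = 0.000219) and Adm at -0.99 ± 0.18 (adjusted p = 2.59e-05), each lower in 4 of 4 libraries. Ramp3 lay at 0.64 ± 0.13 (adjusted p = 9.79e-05), a call lost against the mean of the markers (0.21, adjusted p = 0.145). Calca at -0.19 was called lower against that mean (-0.63, adjusted p = 0.0011). Each difference also carries the spread of the marker median, so these moderated p-values may be too small. With each gene's own spread the same members were called, with 7092 of 25206 genes above and 15363 below. The own-spread adjusted p was 0.0404 for Calcrl, 0.00623 for Adm and 0.031 for Ramp3.

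For each member with a mean of at least 1 FPKM, the genes nearest in level over the 4 libraries were taken from the 145 genes of the other lists, by Euclidean distance of log2(FPKM + 1). Nearest to Ramp1 were the endothelial genes Ly6a, a GPI-anchored surface antigen (distance 0.21, 49.5 ± 4.33 FPKM), and Egfl7 (0.43, 40.3 ± 4.67). Ramp2 had no near match, with Egfl7 at 1.12 and the neuronal gene Rbfox3 at 1.21. Calcrl was nearest to the smooth muscle genes Cnn1, calponin (0.65), and Des, desmin (0.83). Adm was nearest to Des (0.48) and to the VEGF receptor gene Kdr (0.54). For Calca these were Pecam1 (0.60) and the smooth muscle gene Smtn (0.61), and for Ramp3 the hypoxia-responsive gene Ankrd37 (0.48) and the oligodendrocyte gene Cldn11 (0.55). Such distances compare levels in 4 libraries of 1 kind, so likeness in mean level counts in them beside the pattern over libraries. Of the 145 candidates, 90 were cell markers, so a match often carries a cell label. Which cells the members came from was not tested.

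The other genes of the pathway were read from 8 lists with 55 genes. Of these, 53 were above 0 in any library, and 38 lay above 1 FPKM, 7 below and 8 in neither direction, to be read beside the 47.7% and 40.1% of all genes. Their median was 6.02 ± 0.781 FPKM (SD, n = 4), beside 1.43 ± 0.107 for all genes above 0.

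All 4 peptide processing genes lay above 1 FPKM. Cpe, carboxypeptidase E, measured 1406 ± 162 FPKM (SD, n = 4), and the convertase genes Pcsk2 and Pcsk1 30.9 ± 2.04 and 6.69 ± 1.35. Pam, the enzyme that adds the C-terminal amide which adrenomedullin and CGRP need for activity, measured 5.27 ± 0.440 FPKM, above Adm in each library and above Calca in 3 of 4.

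Of 5 genes for peptide breakdown and scavenging, 3 lay above 1 FPKM and 2 passed in neither direction. Those above were Ide, the insulin-degrading enzyme, at 7.15 ± 1.44 FPKM, Ece1, endothelin-converting enzyme, at 6.42 ± 1.42, and Ackr3, a decoy receptor that takes up adrenomedullin, at 3.34 ± 0.479 (SD, n = 4). Gpr182, an atypical receptor of endothelium that was once proposed to bind adrenomedullin, measured 0.949, 1.79, 0.861 and 1.53 FPKM. Its libraries fell on both sides of 1 FPKM (limma, adjusted p = 0.318).

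Receptor coupling genes were all above 1 FPKM, 5 of 5. Gnas, which encodes the G protein subunit Gs-alpha and other products of the same locus, measured 692 ± 93.1 FPKM (SD, n = 4). Crcp, the CGRP receptor component protein, measured 20.1 ± 2.07, the arrestin gene Arrb2 19.98 ± 1.52 and the receptor kinase gene Adrbk1 (GRK2) 17.3 ± 2.56. Crcp was thus above Calcrl in each library.

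Downstream, 5 of 9 adenylyl cyclase genes lay above 1 FPKM and 4 passed in neither direction. The highest were Adcy2 at 14.1 ± 1.02 FPKM, Adcy1 at 7.48 ± 1.19, Adcy3 at 6.03 ± 2.42 and Adcy8 at 4.65 ± 0.901 (SD, n = 4). All 9 cAMP effector genes lay above 1 FPKM, with the protein kinase A subunit genes Prkar1a at 280.4 ± 20.8, Prkar1b at 156 ± 19.4 and Prkacb at 83.5 ± 6.51 and the cAMP-activated exchange factor gene Rapgef4 at 86.0 ± 13.1.

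RAMPs also bind receptors other than Calcrl and Calcr, and 10 such receptor genes were mostly low. Of these 3 lay above 1 FPKM, 6 below and 1 in neither direction. Pth1r, the parathyroid hormone receptor, measured 5.31 ± 0.680 FPKM, Crhr1, the corticotropin-releasing hormone receptor, 4.72 ± 1.58 and Gper1, a membrane oestrogen receptor, 2.199 ± 0.770 (SD, n = 4). Vipr1, a receptor of vasoactive intestinal peptide, measured 0.871 ± 0.335 and passed in neither direction. Pth1r was higher than Calcrl in each library, with levels of 5.77, 5.91, 4.43 and 5.13 FPKM beside 0.917, 3.33, 2.61 and 2.51.

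Adm is known as a target of hypoxia-inducible factors, and 11 genes listed as hypoxia-responsive were read beside it. The list includes Hif1a, which encodes such a factor. Of the 11 genes, 9 lay above 1 FPKM, 1 below and 1 in neither direction. Pgk1 and Ldha, both of glycolysis, measured 196 ± 14.6 and 196 ± 16.5 FPKM, Bnip3, a mitophagy gene, 160 ± 25.4 and Hif1a 20.98 ± 3.35 (SD, n = 4). Car9, a carbonic anhydrase gene, was listed at 0 in 3 libraries and measured 0.512 FPKM in replicate 3.

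**Figure D5:**
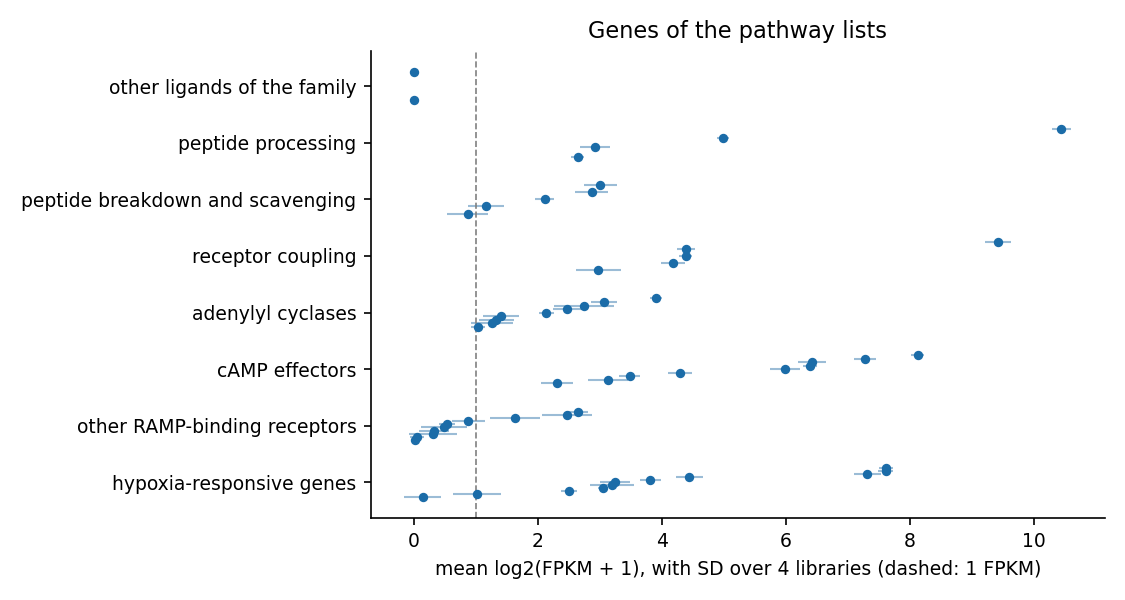
Each point is the mean log2(FPKM + 1) of 1 gene of the pathway lists, with the SD over 4 libraries, and the dashed line marks 1 FPKM. Processing, coupling and cAMP effector genes all lie to its right, and most of the other RAMP-binding receptors lie to its left.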

How the data were processed

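The authors deposited 1 table of FPKM per gene and library. Per the submitters' processing notes, the tools included StringTie 2.2.1, HISAT2 2.2.1, bcl2fastq 2.20 and SAMtools, with build GRCm38. Which annotation release and strand setting were used, and how multiply matching reads were handled, is not given in the sources used here. Such values depend on the total and on how reads of overlapping transcripts are divided. Libraries were matched to columns by the library names in the labels, and 0 columns were left out. Values were analysed as log2(FPKM + 1), which understates differences of low genes. limma 3.58.1 in R 4.3.3 gave 2-sided moderated tests with a mean-variance trend over 25206 genes above 0 in any library, adjusted by the Benjamini-Hochberg method (threshold 0.05), against 1 FPKM and, within library, against the median of 16 endothelial markers, Calcrl and Ramp2. The fit was tested on simulated data without the trend and without a shared reference, so that test does not cover the trend or the within-library references.

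The members and the 19 other lists, 8 of the pathway and 11 of cell markers, were chosen with earlier results of these data known. Named genes are all members, Vps25, up to 4 highest genes of each pathway list and any listed at 0, up to 2 highest of each marker list, and the nearest genes. Others (Gm28863, Gm11978, Pam beside Calca, Car9 and Scn10a) were named after their values were seen or for being listed at 0. Transcripts and positions came from GENCODE M21 (GRCm38), in which all 8 members were found. Alternatives covered the pseudocount, filters, scaling, trend, level, reference, Vps25 added to Ramp2 and each library left out. Each gene's own spread was added after seeing the data. Highest markers not given above were Ly6c1 (68.2 FPKM), Vtn (61.4), Rgs5 (19.7), Myl9 (58.1), Acta2 (55.2), Snap25 (1433), Syp (272), Aldoc (471) and Gja1 (113). The oligodendrocyte (Mbp at 3187 FPKM), choroid plexus (Ttr at 14493) and fibroblast (Apod at 223) lists had 8, 8 and 7 of 8 genes above 1 FPKM, and the lymphatic list (Pdpn at 6.05) had 1 of 4. The result of 1 marker list is not reported here.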

Additional observations from a re-analysis of the deposited data

Results flagged for a closer look

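In a check for a library far from the other 3, which chance alone meets in about 1 of 20 cases, 2 of 10 quantities stood out: Calcb, whose 0.742 FPKM in replicate 2 lay apart from 0, 0 and 0.0667, and the sum of Ramp2 and Vps25, whose 94.2 FPKM in replicate 4 lay apart from 66.6 to 71.3. The gap to the nearest library was 0.91 of the range for Calcb and 0.832 for the sum, the latter barely past Dixon's critical value for 4 samples. Neither Ramp2 nor Vps25 alone stood out, but each split into 2 high and 2 low libraries, a pattern that a check for 1 library apart cannot flag.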

How the results depend on the processing

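The number of members below 1 FPKM fell from 2 to 1 with genes of a mean under 0.1 FPKM left out, which removes Calcr, with rescaling to 1000000 and with a level of 0.5 FPKM, the last 2 through Calcb. Pathway genes below 1 FPKM numbered 3 with that rescaling, 3 at a level of 0.5 FPKM and 12 at 2 FPKM, in place of 7. Members below Calcrl numbered 1 with that filter, and pathway genes below Calcrl, 9 as reported, ranged from 5 to 13 with a library left out, at 5 without replicate 3 and without replicate 4. With Vps25 added to Ramp2, Ramp1 lay at -0.70 from Ramp2 in place of 0.25, the Ramp1 share was 35.5% and the Ramp2 share 58.03%. With a library left out, Adm minus Calcrl ranged from -0.24 to 0.034 and Calcrl minus Adm from -0.034 to 0.24, turning sign without replicate 4. Vps25 minus Ramp2 ranged from -1.17 to 0.082, turning without replicate 3, and Calcb minus Calcr from -0.012 to 0.28, turning without replicate 2. The cause was not tested. Members above 1 FPKM, 6 as reported, ranged from 4 to 6 with a library left out, through Adm and Calcrl. At a level of 2 FPKM, Adm (limma, adjusted p = 0.999) and Calcrl (0.707) were not called. Other counts of members and pathway genes and the Ramp3 share stayed within 1.5 times or 1 SD of the values reported. Of the counts for single lists 1992 stayed within 1.5 times and 98 did not, and 31 single pairs moved by over 1 SD, all with a pseudocount of 0.1 or the rescaling. Depth is unknown, so what it limits cannot be stated for the genes listed at 0.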
